A study of Mus musculus with 4 samples.

Results

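The spots described here lie in a 5xFAD-Dp16 mouse brain section but carry neither a plaque mark nor a plaque-neighbour mark, and they were set against the spots of a Dp16 section. Of the 2941 spots of the 5xFAD-Dp16 section, 396 were marked as plaque spots, 759 as neighbours of plaque spots and 1786 were unmarked. Spots of expression clusters 10, 12, 13, 15, 17 and 21 were left out of both sections (206 unmarked spots and 237 of 2540 Dp16 spots), and the rest were compared within brain regions that held at least 30 spots of each kind. This left 1442 unmarked 5xFAD-Dp16 spots and 2022 Dp16 spots in 10 regions, 3464 of the 10549 spots of the series. No Dp16 spot carried a mark. The clusters left out were built from expression, and their leading genes include haemoglobins (cluster 10), Ttr (13) and Hcrt (15). Clusters 15 and 21 held 0 spots of either arm, so leaving them out removed nothing here.

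Visium, the assay used, captures RNA from a tissue section on barcoded spots, each of which covers pieces of a number of neighbouring cells. One hemisphere section of 10 µm from a male mouse aged 9 months stood for each of 4 genotypes, Wild-type, Dp16, 5xFAD and 5xFAD-Dp16. The Dp16 allele duplicates a stretch of mouse chromosome 16 whose genes lie on chromosome 21 in humans, and serves as a model of Down syndrome. 5xFAD mice carry mutant human transgenes, APP among them, under the neuronal Thy1 promoter and form amyloid plaques. Both sections compared here carry the duplication, and the 5xFAD transgenes are what the genotypes differ by. With 1 section each, a genotype cannot be told apart from an animal, a section or its position in the brain. Spots of 1 section are not replicates, no p-value was computed, and the intervals given hold counting error alone.

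Microglia are the resident macrophages of the brain. Around amyloid plaques they take on a known transcriptional state, marked by Cst7, Itgax, Trem2, Tyrobp, Cd68 and Ccl6, in which lipid-sensing and phagocytic genes are high, while complement C1q and C4 are made by microglia and astrocytes and tag synapses and debris. Interferon-stimulated genes such as Ifi27l2a and Bst2 mark a further microglial state, and the receptors for interferons α, β and γ are partly encoded in the segment that Dp16 duplicates. The question put here is how much of this response is measured in tissue that carries no plaque mark.

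Levels are CPM, UMIs scaled to a fixed total, computed for each region and then averaged over the 10 regions with the same weights in both arms, and a ratio is the log2 of the level in unmarked 5xFAD-Dp16 spots over that in Dp16 spots. Levels of unmarked 5xFAD and Wild-type spots, a second pair, were made the same way. They cover 9 of these 10 regions with weights of their own, so values of the 2 pairs do not rest on the same set of regions. The unmarked spots held 17784232 UMIs (counted transcripts) in all, with a median of 11531 per spot, and the Dp16 spots 23611551, with a median of 10362. Median depth differed most in Cortex AUC, with 18689 UMIs per unmarked spot against 9012, and was also higher in CNU (14440 against 10153). Within a region the 2 arms shared between 52.3% (Cortex CTXsp) and 88.2% (Thalamus) of their makeup by expression cluster, so a region label does not make the tissue alike. The sections shared 2486 barcodes, which are position codes of the array and not shared cells.

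Microglial genes of the plaque response were higher in unmarked spots of the 5xFAD-Dp16 section, most of all Cst7, an inhibitor of lysosomal cathepsins. Cst7 was at 46.6 CPM in unmarked 5xFAD-Dp16 spots and 0.160 CPM in Dp16 spots (706 against 3 UMIs), a log2 ratio of 8.19 with a counting interval of 6.54 to 9.84. It was at 44.7 CPM in unmarked 5xFAD spots and 0.702 CPM in the Wild-type section. Levels were thus alike in both sections with transgenes and near 0 in both sections without them. Its partner marker Itgax, the integrin CD11c, was sparse, with 40 UMIs in the unmarked spots and 2 in Dp16, and did not reach the 5 CPM needed to count as measured.

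Among 10864 genes that averaged 5 CPM or more over the 2 arms, 152 were at least 1.5-fold higher in the unmarked spots (1.40%) and 115 were at least 1.5-fold lower (1.06%). A further threshold, an interval that excludes equality, put 12.2% of genes higher and 23.7% lower beyond counting error, and the median log2 ratio of all genes was -0.05. Of the 152 higher genes, 46 belonged to 6 lists of microglial and immune genes with 81 measured members, and 96 belonged to none of the lists used. Of the 72 members that reached 5 CPM in Dp16 by itself, 38 were at least 1.5-fold higher. In the section pair without the duplication, unmarked 5xFAD over Wild-type, 54 of the 152 were also at least 1.5-fold higher and 9 were at least 1.5-fold lower, where 1.71% of all 10864 genes were higher and 1.33% lower in that pair. Among the 115 lower genes, 5 were also lower in that pair and 26 were at least 1.5-fold higher.

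**Figure D1:**
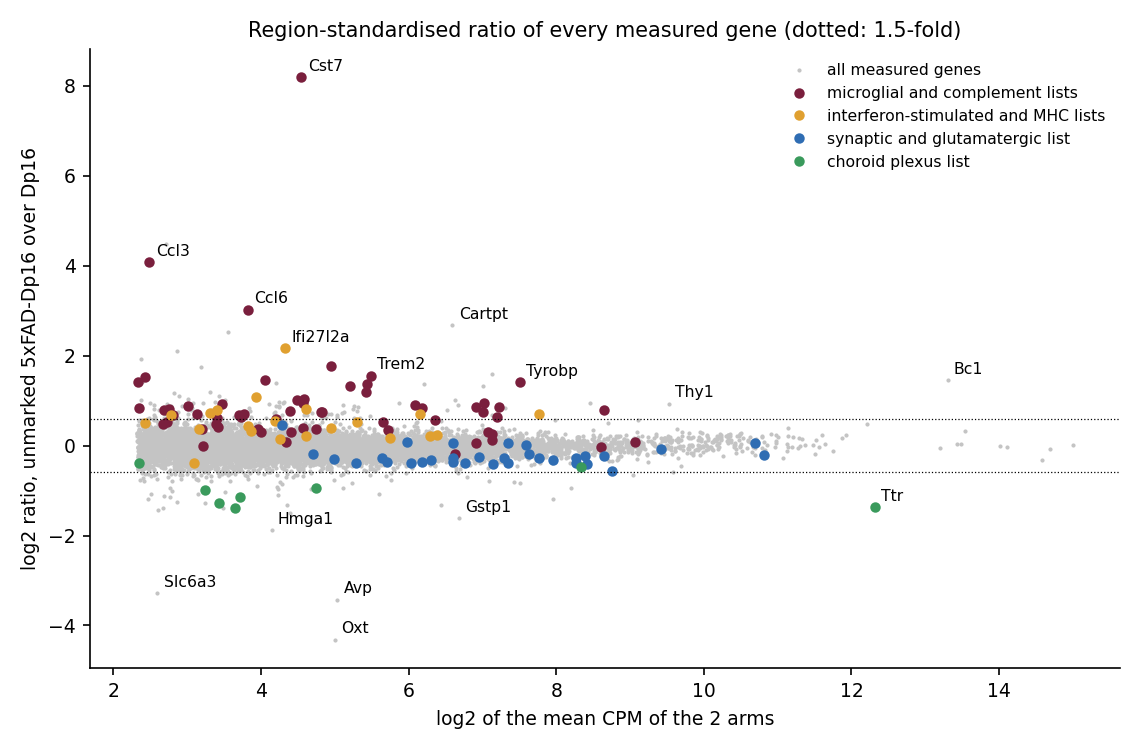
Each point is a gene of at least 5 CPM, with the log2 of its mean level on the x axis and its region-standardised log2 ratio of unmarked 5xFAD-Dp16 over Dp16 spots on the y axis; coloured points are members of named lists and dotted lines mark 1.5-fold. Microglial and complement genes lie mostly above 0, led by Cst7 at 8.19, synaptic genes mostly below 0, and choroid plexus genes below 0.

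Trem2, the lipid receptor that the plaque state of microglia depends on, was at 66.9 CPM in unmarked 5xFAD-Dp16 spots, 22.8 in Dp16, 83.3 in unmarked 5xFAD and 27.5 in Wild-type. Tyrobp, its signalling adaptor DAP12, was at 263 CPM in unmarked 5xFAD-Dp16 spots, 99.4 in Dp16, 279 in unmarked 5xFAD and 106 in Wild-type. The log2 ratio over Dp16 was 1.55 (1.40 to 1.71) for Trem2 and 1.41 (1.33 to 1.48) for Tyrobp, and both were above 0 in 10 of 10 regions. For both genes the 2 sections with transgenes were above the 2 without. How many of all genes separate in this way was not counted. The Fc receptor chain Fcer1g (0.90) and Ly86, a partner of Toll-like receptors (1.32), were higher too. The inhibitory Fc receptor Fcgr2b (1.41) was at 7.3 CPM against 2.8 in Dp16. Fcgr2b reached the 5 CPM needed to count as measured only through the unmarked spots, and is not among the genes counted next. Of the 11 receptor and signalling genes measured in Dp16 by itself, 11 were higher beyond counting error and 8 at least 1.5-fold higher. That filter admits no gene through a high level in the unmarked spots, but it does admit genes through a high level in Dp16. Under that filter 11.7% of all genes were higher beyond counting error, 24.1% lower, 1.10% at least 1.5-fold higher and 1.31% at least 1.5-fold lower.

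The chemokine Ccl6 was at 25.1 CPM against 3.09 in Dp16 (log2 3.02), and Ccl3, another chemokine of activated microglia, at 10.6 against 0.626 (4.08). Both chemokines were under 5 CPM in Dp16 and counted as measured only through the unmarked spots. Cd68, a lysosomal membrane glycoprotein of phagocytes, was at 24.4 against 8.82 CPM (1.47), lysozyme Lyz2 at 62.7 against 24.2 (1.37) and cathepsin D, Ctsd, at 507 against 294 (0.79). Not every lysosomal member differed: cathepsin B, Ctsb, had a log2 ratio of 0.08 and the fatty acid binding protein Fabp5 of -0.03. Of 39 plaque-associated microglial genes, 27 were measured in the mean of both arms and 22 in Dp16 by itself. Among those 22, 18 were higher beyond counting error, 1 was lower (Ank, -0.19), 9 were at least 1.5-fold higher, and the median log2 ratio relative to all genes was 0.48. A set of 24 general lysosome genes, found in most cell types, had a median of 0.02 relative to all genes, with 5 higher and 5 lower beyond counting error and none past 1.5-fold. Hexa, a member of that set, was at 0.45.

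Markers that microglia carry in the healthy brain were higher as well. Of the 14 homeostatic markers measured, 13 were higher beyond counting error and 8 at least 1.5-fold higher, with a median of 0.68 relative to all genes. Among all genes 12.2% were higher beyond counting error and 1.40% at least 1.5-fold higher. Ctss, cathepsin S, was at 179 against 114 CPM (0.64) and the colony-stimulating factor receptor Csf1r at 59.3 against 41.1 (0.53). P2ry12, the purinergic receptor of resting microglia, was at 26.9 against 20.6 CPM (0.39), and the identity factor Sall1 was at 9.22 against 9.32, a log2 ratio of -0.02 (-0.34 to 0.31). In these pooled spots, more microglia and more RNA per microglial cell cannot be told apart. None of 8 markers of border macrophages reached 5 CPM, and their summed level over 11 regions was 8.67 CPM in Dp16 and 8.76 in unmarked spots. The blood list, 4 measured haemoglobin and red-cell genes, had a median of 0.38 relative to all genes here and -0.68 in the other pair, and its part in these results was not tested.

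Each measured complement gene was higher. The 3 chains of C1q, the recognition molecule of the classical pathway, had log2 ratios of 0.95 (C1qa, 170 against 88.4 CPM), 0.86 (C1qb, 192 against 106) and 0.85 (C1qc, 154 against 85.6). C4b, which acts after C1q and is made by astrocytes and oligodendrocytes as well as microglia, was at 59.5 against 26.1 CPM (1.19). All 5 of them were at least 1.5-fold higher, where 1.40% of all genes were, and the median of the 5 relative to all genes was 0.91, as in the other pair (0.91). Serping1, C3 and C3ar1 were under 5 CPM.

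**Figure D2:**
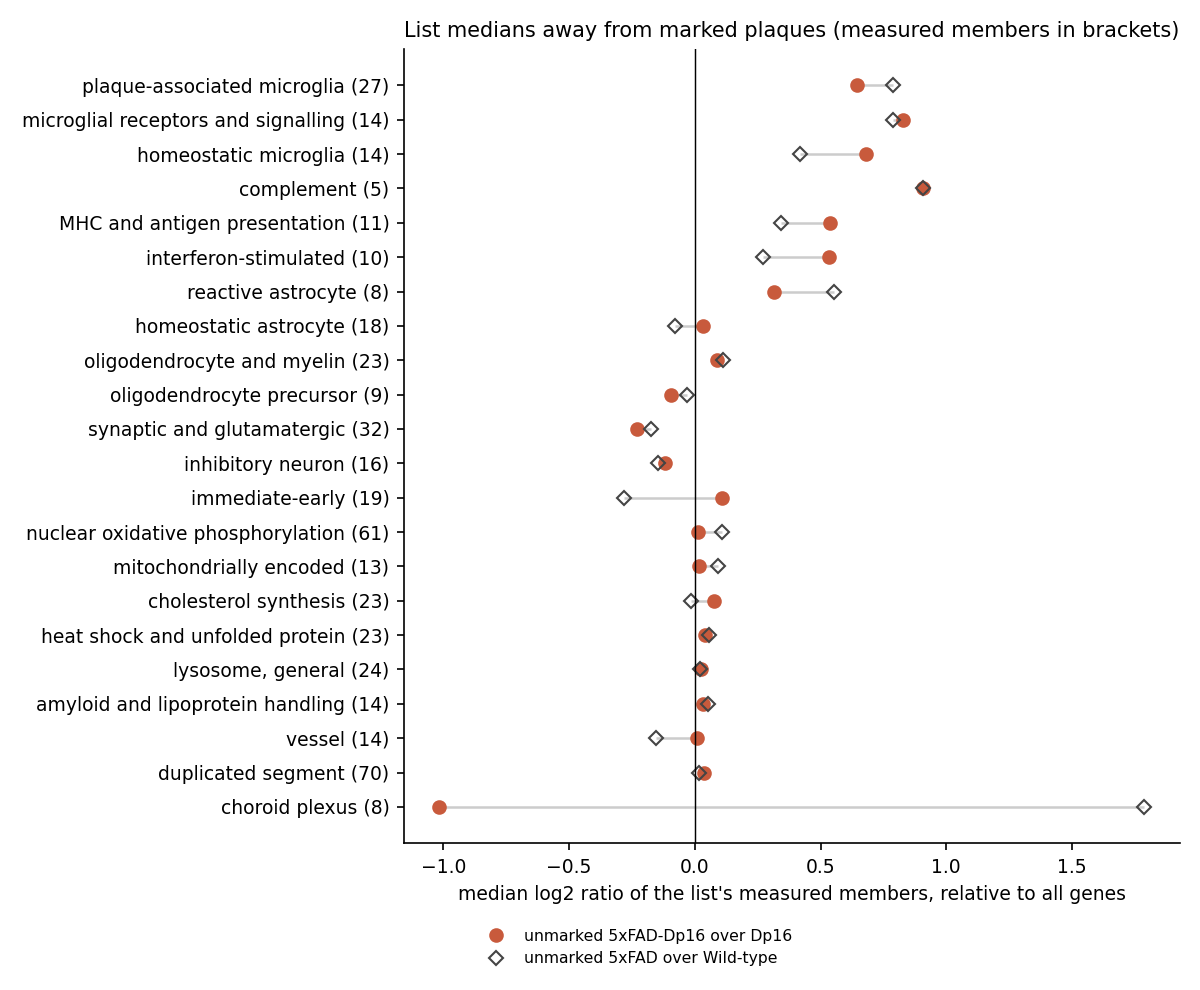
Circles give the median log2 ratio of each list's measured members, unmarked 5xFAD-Dp16 over Dp16, and diamonds the same for unmarked 5xFAD over Wild-type, both relative to the median of all genes. The microglial, complement, MHC and interferon lists lie above 0 in both pairs, and choroid plexus genes lie at -1.02 in one pair and 1.79 in the other.

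Genes of antigen presentation and interferon response were mostly higher, and between the pairs they differed with both signs, which was not tested. The ratio was above that of the pair without the duplication for 7 of 11 measured genes of antigen presentation and for 7 of 10 interferon-stimulated genes. The same share over all genes is not given, so these counts are not read as a result about the lists. The median log2 ratio of all genes was -0.05 in this pair and -0.08 in the other. B2m, the light chain of MHC class I, was at 269 CPM in unmarked 5xFAD-Dp16 spots, 165 in Dp16, 256 in unmarked 5xFAD and 171 in Wild-type. The class I heavy chain H2-D1 was at 88.6, 54.4, 81.5 and 54.8 CPM in the same order. Their log2 ratios over Dp16 were 0.70 and 0.70, and 0.58 and 0.57 in the other pair. Psmb8, a subunit of the immunoproteasome that cuts peptides for class I, was at 13.5 against 7.75 CPM (0.79), and 9.31 against 8.21 in the other pair (0.18). The class II chaperone Cd74 went the other way between the pairs, with 0.73 here and 2.57 in the other, while Psme1 (0.23 and 0.25) and Tapbp (0.15 and 0.20) differed little. Of the 10 genes of this list measured in Dp16 by itself, 9 were higher beyond counting error and 4 at least 1.5-fold higher. Among all genes measured in Dp16 by itself the shares were 11.7% and 1.10%.

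Ifi27l2a, a gene induced by type I interferon, differed most among the interferon-stimulated genes. It was at 32.9 CPM in unmarked 5xFAD-Dp16 spots, 7.29 in Dp16, 15.5 in unmarked 5xFAD and 9.495 in Wild-type. The log2 ratio was 2.17 (1.92 to 2.43) over Dp16 and 0.71 (0.37 to 1.05) for 5xFAD over Wild-type, intervals that do not meet but cover counting error only. Bst2, the antiviral membrane tether, was at 20.6 against 9.82 CPM (1.07) and at 16.6 against 10.7 in the other pair (0.63). The galectin-binding protein Lgals3bp had ratios of 0.81 and 0.90 and Ifi27 of 0.21 and 0.64, so neither was higher in this pair than in the other. The interferon signal transducer Stat2 was lower in both (-0.38 and -0.38). Of 30 interferon-stimulated genes 10 were measured, all of them also in Dp16 by itself. Of these 9 were higher and 1 lower beyond counting error, 4 were at least 1.5-fold higher, and the median was 0.53 relative to all genes against 0.27 in the other pair. Among all genes measured in Dp16 by itself 11.7% were higher and 24.1% lower beyond counting error, and 1.10% at least 1.5-fold higher.

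The promoters of Bst2 and Ifit3 are shown because they carry the letters of the interferon-stimulated response element, and that of Trem2 because it carries, on the other strand, a core of the kind that PU.1, the macrophage-defining ETS factor, binds. Each is 300 bases long, from 250 before to 50 after the gene start, taken from RefSeq (GRCm38.p6) and written 5′ to 3′ on the gene's strand. Capitals mark matches on either strand to GAAANNGAAA (Bst2 and Ifit3) or to GAGGAAG (Trem2), and 2 overlapping matches run together in Bst2. The Bst2 window is chr8:71537423-71537722 on the minus strand, that of Ifit3 chr19:34583279-34583578 on the plus strand and that of Trem2 chr17:48346151-48346450 on the plus strand.
Bst2: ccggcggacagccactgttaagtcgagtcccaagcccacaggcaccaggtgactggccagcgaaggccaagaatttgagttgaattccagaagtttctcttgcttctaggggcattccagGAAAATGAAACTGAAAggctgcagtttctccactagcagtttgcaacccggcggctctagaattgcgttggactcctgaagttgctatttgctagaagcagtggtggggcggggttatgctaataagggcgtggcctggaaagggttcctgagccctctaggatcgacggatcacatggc
Ifit3: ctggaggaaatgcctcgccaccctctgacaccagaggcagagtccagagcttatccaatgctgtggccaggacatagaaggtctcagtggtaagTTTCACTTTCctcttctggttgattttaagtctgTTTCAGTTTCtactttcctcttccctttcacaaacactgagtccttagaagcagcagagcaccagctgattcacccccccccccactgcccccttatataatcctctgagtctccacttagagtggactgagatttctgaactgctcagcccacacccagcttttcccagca
Trem2: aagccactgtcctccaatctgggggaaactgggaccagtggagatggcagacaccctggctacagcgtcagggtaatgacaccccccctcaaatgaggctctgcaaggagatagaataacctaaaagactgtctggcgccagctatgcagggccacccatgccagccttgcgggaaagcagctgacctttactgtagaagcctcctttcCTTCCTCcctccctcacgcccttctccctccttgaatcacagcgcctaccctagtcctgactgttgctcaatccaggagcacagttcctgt
GAAANNGAAA was found in 3.49% of 27025 promoters of the same length, and in 12 of the 23 interferon-stimulated genes that matched by symbol (52.2%). Among those measured the match did not go with a common direction: Bst2 was at 1.07, Ifitm3 at 0.39, Ifit3 at 0.37 and Stat2 at -0.38. GAGGAAG was found in 13.5% of all promoters, in 6 of 31 matched plaque-associated genes (19.4%), in 7 of 18 matched receptor and signalling genes (38.9%) and in 2 of 20 matched synaptic genes (10%). The windows of Cst7, Ccl6, Cd68 and Lgals3bp, not printed, held no match to either, and Ifi27l2a, Cd52 and Tyrobp had no entry. A match describes the letters in the window and is no evidence of binding.

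Astrocyte genes were less uniform. Gfap, the intermediate filament of reactive astrocytes, was at 133 CPM in unmarked 5xFAD-Dp16 spots, 70.5 in Dp16, 177 in unmarked 5xFAD and 70.5 in Wild-type, with a log2 ratio of 0.91 (0.81 to 1.02) over Dp16. S100a6 was at 116 against 67.5 CPM (0.78) and higher in 10 of 10 regions. The acute-phase inhibitor Serpina3n, a marker of reactive astrocytes, was at 29.0 against 21.2 CPM (0.45), and at 43.6 against 17.9 in the other pair (1.28). Serpina3n was higher in 6 regions and lower in 4, with 105 against 55 UMIs in Thalamus giving its highest regional ratio (1.74). Of 8 reactive astrocyte genes measured, 4 were higher beyond counting error and 2, Gfap and S100a6, at least 1.5-fold higher. Of all genes, 12.2% and 1.40% were. The log2 ratios of the 8 ran from -0.24 to 0.91, with a median of 0.31 relative to all genes. The median was 0.15 for the 9 genes of this list measured in Dp16 by itself. Homeostatic astrocyte genes had a median of 0.03 relative to all genes over 18 genes, and the glutamate transporter Slc1a2 was at -0.20. Of the 18, 2 were higher and 6 lower beyond counting error, where 12.2% of all genes were higher and 23.7% lower. Apoe, the lipoprotein made by astrocytes and by plaque-associated microglia, was at 1851 against 1740 CPM (0.09), with 6 regions higher and 4 lower.

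The response of unmarked spots differed between regions, and which region was lowest depended on the list. CNU was lowest for complement (-0.32), receptor and signalling (-0.11) and homeostatic genes (-0.08), and Cortex CTXsp for plaque-associated (-0.02) and interferon-stimulated genes (-0.20, against 0.40 in CNU). In CNU, where 0% of the kept 5xFAD-Dp16 spots were plaque spots and 1.64% neighbours, the 39 plaque-associated genes summed to 2140 CPM in 60 unmarked spots and 2138 in 58 Dp16 spots. In FB, a label whose spots were rich in myelin transcripts (40666 and 32568 summed CPM), they summed to 5769 against 3226 CPM (log2 0.84), and in Hippocampus to 2935 against 1754 (0.74). In Cortex CTXsp and Cortex OLF the sums differed little, with 2109 against 2144 CPM (-0.02) and 1893 against 1817 (0.06). The other log2 ratios of this sum were 0.63 in Cortex PTL, 0.55 in Cortex AUC, 0.47 in Thalamus, 0.22 in Hypothalamus and 0.18 in Cortex SSp. Without Ctsb, Fabp5 and Ctsd, the 3 most abundant members, the sum over regions was 1629 against 1046 CPM (0.64) for the other 36 genes.

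Single genes followed the same order in part. Trem2 in unmarked and Dp16 spots was at 38.3 and 36.9 CPM in CNU, 30.0 and 17.1 in Cortex CTXsp, 33.1 and 15.02 in Cortex OLF, 28.7 and 10.9 in Cortex SSp, and 49.96 and 21.0 in Hypothalamus. It was at 65.4 and 24.7 in Cortex AUC, 67.8 and 26.8 in Cortex PTL, 68.5 and 26.0 in Thalamus, 83.8 and 16.5 in Hippocampus, and 155 and 36.0 in FB. In CNU the interval of the ratio, -0.76 to 0.89, held 0 (32 against 23 UMIs), in the other 9 regions it did not, and Hippocampus had the highest ratio, 2.35. Cst7 was found in each region of the unmarked spots, from 5 UMIs in CNU to 176 in Cortex AUC, and in Dp16 with 2 UMIs in FB, 1 in Thalamus and 0 in the other 8 regions. Cst7 in CNU was at 5.99 CPM, against at least 11.9 CPM in the other 9 regions. Complement sums were lower in CNU (358 against 446 CPM, -0.32) and higher in the other 9 regions, up to 1.43 in Hippocampus and Cortex PTL, and Gfap likewise (-0.67 in CNU, up to 1.89 in Cortex PTL).

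**Figure D3:**
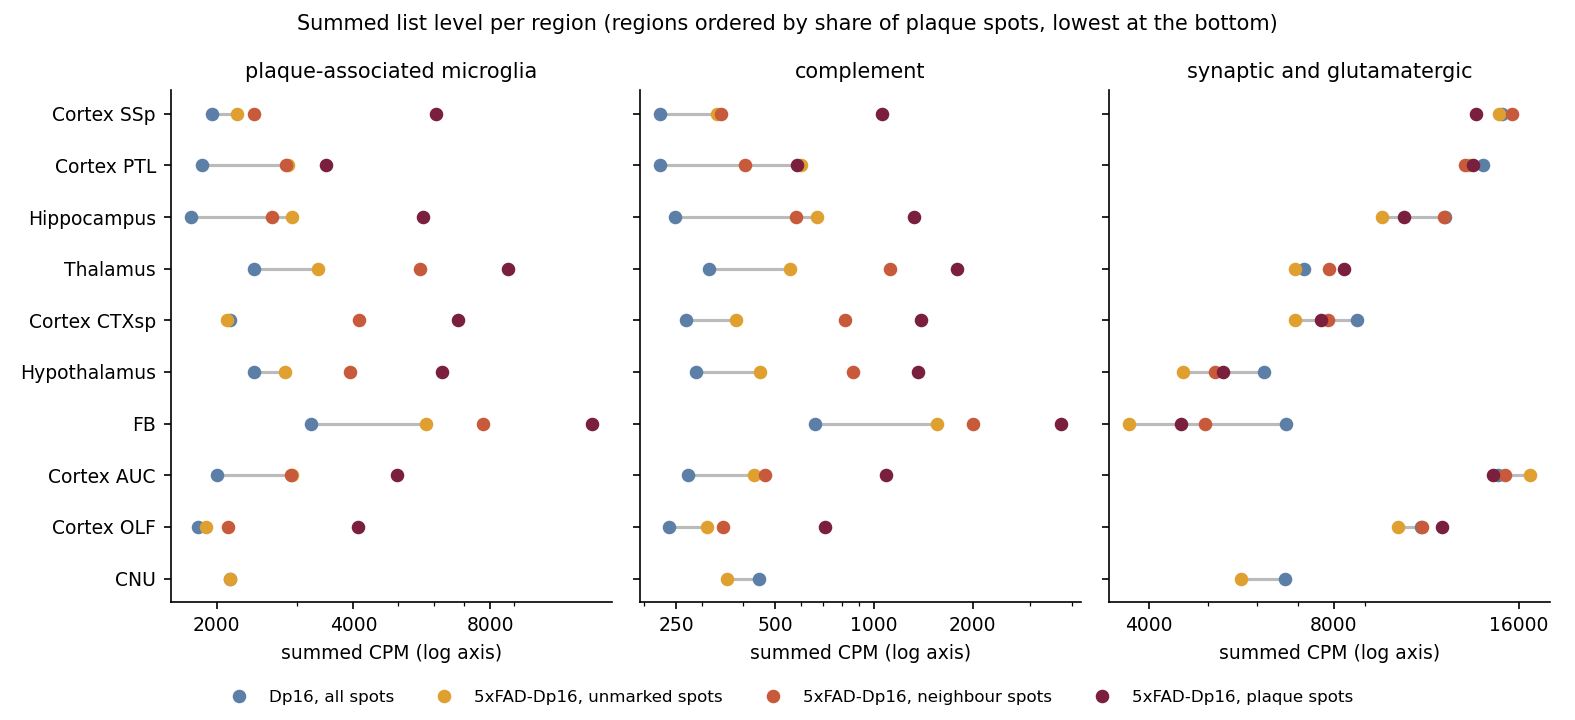
Summed CPM (log axis) of 3 gene lists in each region, for all Dp16 spots and for unmarked, neighbour and plaque spots of 5xFAD-Dp16, where a class has at least 10 spots. For the plaque-associated list the unmarked spots lie at or above Dp16 in 9 of 10 regions and below the plaque spots in every region that has them, and in CNU the 2 arms coincide at 2140 and 2138 CPM.

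Across the 10 regions, the ratio of the complement sum went with the share of spots marked as plaque or neighbour (Pearson's r = 0.81, Spearman's rho = 0.72), and less so that of the plaque-associated sum (r = 0.54, rho = 0.53) and of the interferon sum (r = 0.31, rho = 0.32). The same ratios had r = -0.34, 0.01 and 0.31 with the log2 ratio of median depth in the 2 arms. These are descriptions over 10 regions that share 2 sections and their libraries.

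**Figure D4:**
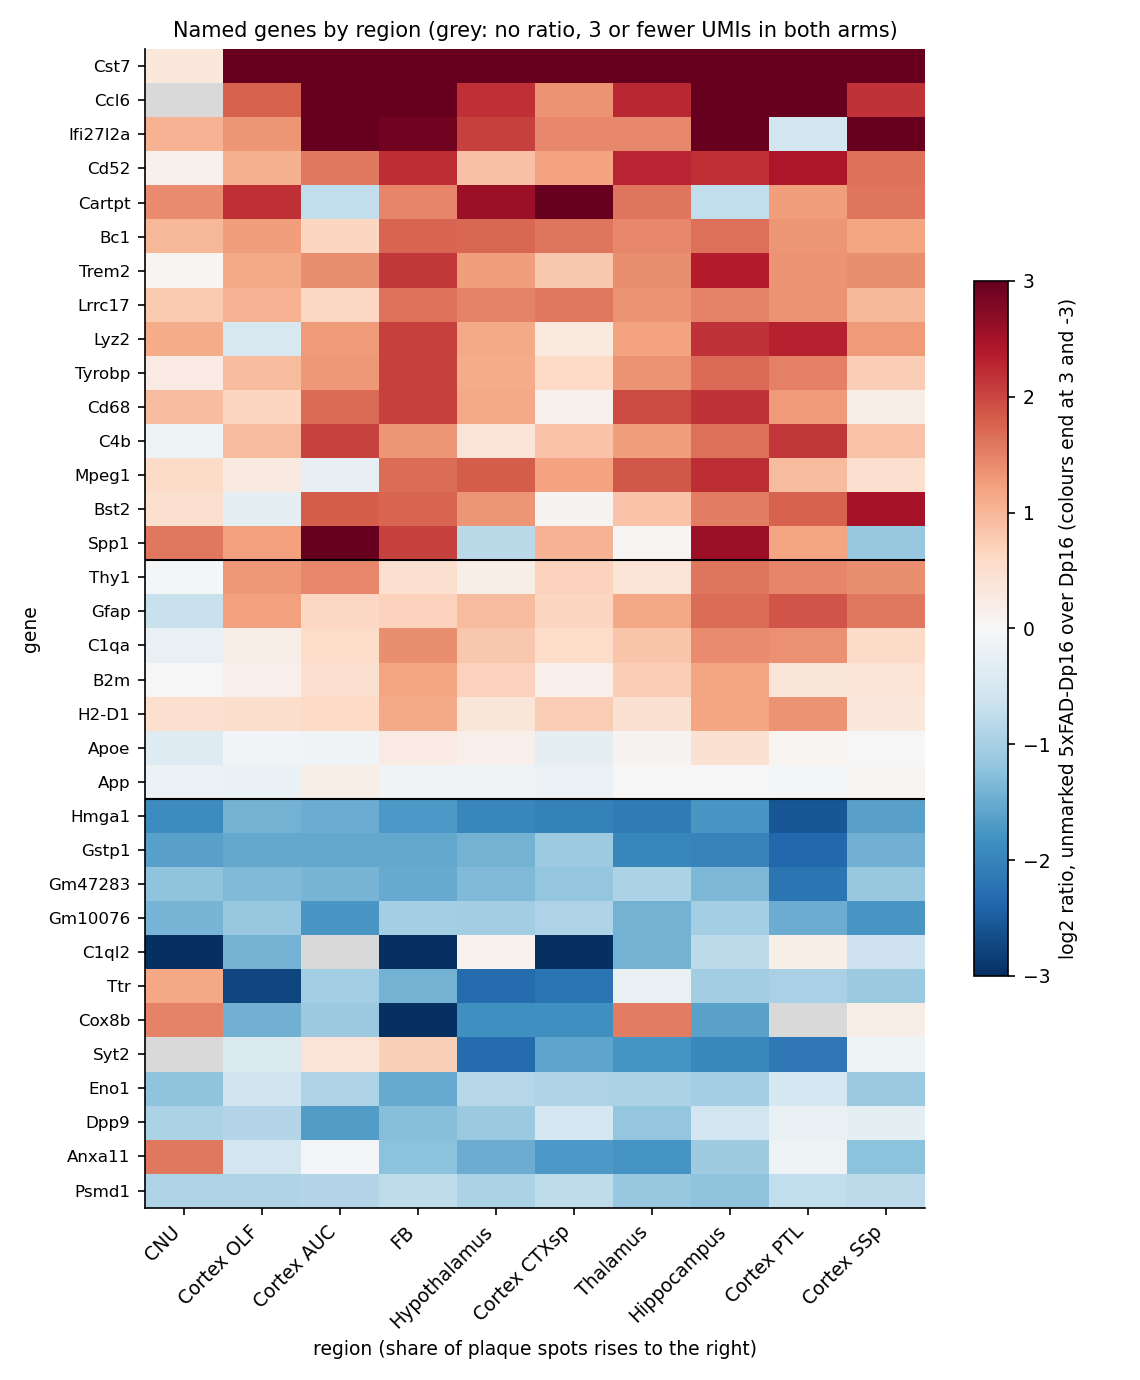
Log2 ratio of unmarked 5xFAD-Dp16 over Dp16 spots (colour) for named genes (rows) in 10 regions (columns, ordered by share of plaque spots); counts of 0 were set to 3, and lines part the highest, the fixed and the lowest genes. Trem2, Tyrobp and Cd52 are above 0 in every column, Thy1 is near 0 in CNU and Hypothalamus, and Gstp1 and Hmga1 are below 0 in every column.

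Averaged over regions, the unmarked spots lay between Dp16 and the marked spots of the 5xFAD-Dp16 section for the sum and the genes given next. Over 11 regions with at least 10 spots of each class, the 39 plaque-associated genes summed to 2256 CPM in Dp16, 3133 in unmarked, 4131 in neighbour and 6974 in plaque spots, which is 0.47, 0.87 and 1.63 above Dp16 on the log2 scale. Trem2 was at 22.3, 69.4, 129 and 275 CPM in that order, C1qa at 86.4, 173, 236 and 453, and Ifi27l2a at 7.10, 32.5, 67.0 and 105. Each of these genes was higher with every step towards the mark. Gfap followed with 69.0, 139, 183 and 290 CPM. The plaque-associated sum did not keep this order in Hippocampus (2935 CPM in unmarked, 2645 in neighbour spots), Cortex AUC (2928 and 2910) and Cortex PTL (2871 and 2842). In Cortex PTL other sums were highest in the unmarked spots. Complement was at 601 CPM in unmarked, 404 in neighbour and 585 in plaque spots, homeostatic markers at 657, 512 and 643, and receptor and signalling genes at 321, 252 and 317. In Hippocampus unmarked spots were above neighbours for complement (671 and 580 CPM), homeostatic (799 and 627) and interferon-stimulated genes (375 and 307).

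Transcripts of Cst7 or Itgax were found in a minority of unmarked spots. After thinning each spot to 5000 UMIs, a UMI of Cst7 or Itgax was found in 131 of 1292 unmarked spots, 10.1% (exact binomial interval 8.55 to 11.9), against 3 of 1833 Dp16 spots, 0.164% (0.0338 to 0.478). It was found in 23.9% of neighbour and 42.8% of plaque spots, in 13.7% of unmarked 5xFAD spots and in 0.389% of Wild-type spots. Unthinned, the shares were 16.1% of unmarked and 0.247% of Dp16 spots at median depths of 11531 and 10362 UMIs. Cortex AUC, the region with the depth gap, had the highest unthinned share, 31 of 112 spots (27.7%), and CNU had 5 of 60 (8.33%) with an interval of 2.76 to 18.4. Trem2 was found in 20.6% of thinned unmarked spots and 10.4% of Dp16 spots, the more abundant Tyrobp in 53.6% and 36.6%, and Ifi27l2a in 14.3% and 3.60%. In unmarked 5xFAD spots Ifi27l2a was found in 4.97%, below the 12.5 to 16.3% interval of unmarked 5xFAD-Dp16 spots. P2ry12 was found in 10.6% of unmarked spots and 9.82% of Dp16 spots, shares within each other's intervals.

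**Figure D5:**
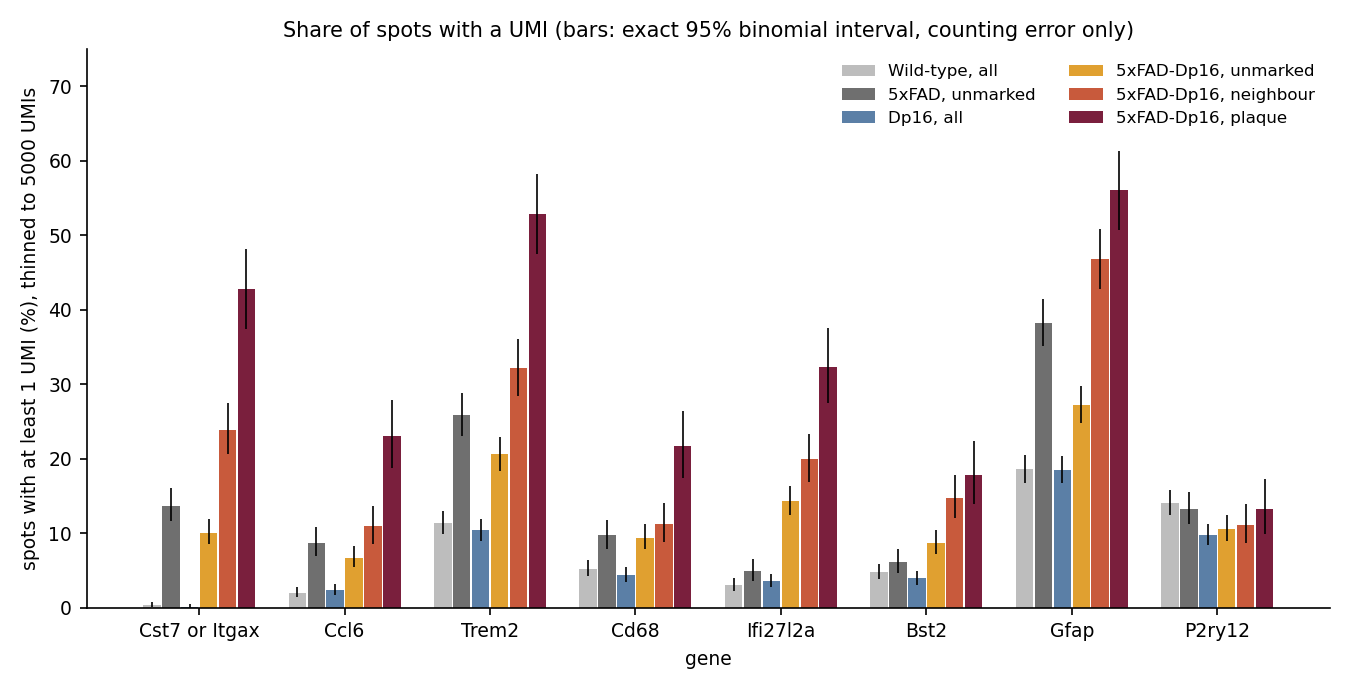
Share of spots with at least 1 UMI of a gene after thinning to 5000 UMIs, for 6 classes of spots, with exact 95% binomial intervals that cover counting error only. Cst7 or Itgax climbs from 0.164% in Dp16 over 10.1% in unmarked and 23.9% in neighbour to 42.8% in plaque spots, while P2ry12 stays between 9.82% and 13.3% in these classes.

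Leaving out every spot with a UMI of Cst7 or Itgax, in both arms, took away much of the microglial difference but not all of it. The 1210 unmarked and 2017 Dp16 spots that remained gave a median of 0.31 relative to all genes for the plaque-associated list, 0.41 for homeostatic markers and 0.51 for complement. Trem2 was then at 42.0 against 22.8 CPM (0.88), Tyrobp at 177 against 99.7 (0.83), Ccl6 at 8.99 against 3.11 (1.53) and C4b at 54.1 against 26.2 (1.05). Ifi27l2a was still at 29.0 against 7.36 CPM (1.98), and the interferon list had a median of 0.51. Spp1, osteopontin, went from 1.04 to -0.57 (10.7 against 15.8 CPM). Spp1 had 212 UMIs in Cortex AUC against 2 in Dp16, and was lower in Hypothalamus (27.5 against 48.1 CPM). This selection uses measured transcripts that go with the genes described, and was chosen after seeing the data.

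Thy1, whose promoter drives the transgenes, was higher mainly in cortical and hippocampal regions. It was at 971 CPM in unmarked 5xFAD-Dp16 spots, 508 in Dp16, 1257 in unmarked 5xFAD and 591 in Wild-type. By region the log2 ratio over Dp16 was 1.60 in Hippocampus (1588 against 523 CPM), between 1.29 and 1.47 in Cortex PTL, Cortex AUC, Cortex SSp and Cortex OLF, and 0.69 in Cortex CTXsp. It was 0.48 in FB, 0.41 in Thalamus, 0.19 in Hypothalamus and -0.06 in CNU (312 against 326 CPM). Mouse App, which lies in the duplicated segment and is duplicated in both arms, was at 971 against 1011 CPM (-0.06). The 70 measured genes of that segment had a median of 0.03 relative to all genes, with 9 higher and 15 lower beyond counting error. These counts are near the shares over all genes, 12.2% higher and 23.7% lower.

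Synaptic genes were slightly lower. Of 32 genes of glutamatergic synapses and vesicle release, 26 were lower and 2 higher beyond counting error, where 23.7% of all genes were lower and 12.2% higher. None passed 1.5-fold, and the median relative to all genes was -0.23, close to the -0.17 of the other pair. Slc17a7, Syp, Syn1, Cplx2 and Shank1 were lower in 10 of 10 regions. Slc17a7, the vesicular glutamate transporter VGLUT1, was at 294 against 388 CPM (-0.40), and the vesicle protein synaptophysin, Syp, at 266 against 350 (-0.40). Snap25, of the release machinery, was at 1667 against 1933 CPM (-0.21), Nrgn at 0.06, and the scaffold gene Shank3 at 0.45 in this pair and -1.28 in the other. The log2 ratio of the summed list was -0.85 in FB and 0.17 in Cortex AUC. Complexin 1, Cplx1, was the lowest member (349 against 513 CPM, -0.56), and over the 11 regions of the graded comparison it was at 553 CPM in Dp16, 383 in unmarked, 594 in neighbour and 678 in plaque spots.

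Among markers of inhibitory neurons, Pvalb (126 against 219 CPM, -0.80), Sst (409 against 643, -0.65) and the vesicular GABA transporter Slc32a1 (80.3 against 123, -0.61) were at least 1.5-fold lower and Vip was higher (46.3 against 30.2, 0.62). Their regional ratios had both signs, from -1.97 to 0.56 for Pvalb and from -1.98 to 0.68 for Sst. In the other pair Pvalb was at -0.53 and Sst at -0.55. Over 16 measured genes the median was -0.12 relative to all genes, with 9 lower and 2 higher beyond counting error. Of all genes, 23.7% were lower and 12.2% higher beyond counting error.

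Immediate-early genes, which neurons switch on with activity and stress, had a median of 0.11 relative to all genes here and -0.28 in the other pair. Nr4a1 was at 51.4 CPM in unmarked 5xFAD-Dp16 spots, 28.4 in Dp16, 56.8 in unmarked 5xFAD and 72.0 in Wild-type. The Dp16 section was the lowest of the 4 for this gene, and its ratio was 0.85 with 10 of 10 regions higher. Junb (0.62) and Fos (0.69) were also at least 1.5-fold higher, and Npas4, induced by synaptic input, was lower (4.62 against 9.27 CPM, -1.003). Genes of oxidative phosphorylation, cholesterol synthesis, heat shock and myelin had medians between 0.01 and 0.09 relative to all genes.

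A further group of genes differed in nearly every region and had no tie to microglia. Bc1, a short non-coding RNA of neuronal dendrites, was at 14848 CPM in unmarked 5xFAD-Dp16 spots, 5392 in Dp16, 8033 in unmarked 5xFAD and 6110 in Wild-type, with a log2 ratio of 1.46 and 10 of 10 regions higher. Over the 11 regions it was at 5100 CPM in Dp16, 14121 in unmarked, 10903 in neighbour and 8930 in plaque spots. Lrrc17 was at 69.3, 175, 136 and 117 CPM in the same order, so both genes were highest in the unmarked spots. Gstp1, a glutathione transferase, was at 50.7 CPM in unmarked 5xFAD-Dp16 spots, 155 in Dp16, 97.1 in unmarked 5xFAD and 59.9 in Wild-type (-1.61, lower in 10 of 10 regions). Hmga1, a chromatin protein, was at 7.57, 27.8, 13.5 and 11.1 CPM in that order (-1.88), Psmd1, of the proteasome, at 23.7, 45.5, 34.7 and 33.4 (-0.94), and the peptidase Dpp9 at 12.7, 24.8, 20.3 and 21.3 (-0.96). For these 4 genes the Dp16 section was the highest of the 4 and the 5xFAD-Dp16 section the lowest. The ratio of Hmga1 is less certain than the others, since Hmga1b went the other way, as given below.

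Some of the lowest genes have near-identical copies, between which reads may be divided, and are uncertain for that reason. Eno1, an enzyme of glycolysis, was at 202 against 386 CPM (-0.93) while its retrocopy Eno1b was at 30.2 against 16.3 (0.89), and their sum was at 232 against 402 (-0.79). Hmga1 was likewise lower (-1.88) while Hmga1b was higher (0.72). Their sum was not computed, and whether reads were divided between them was not tested. Gm10076, a copy of Rpl41, was at 151 against 346 CPM (-1.19), and the sum of both was at 3529 against 3207 (0.14). Rps27rt (1.01), Rpl10-ps3 (0.91) and Ftl1-ps1 (1.10), copies of Rps27, Rpl10 and Ftl1, were higher while the sums with their parents were at 0.10, -0.01 and 0.30.

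Genes of structures that fill only a part of a region differed with both signs and often with opposite sign between the pairs. Ttr, the thyroid hormone carrier secreted by the choroid plexus, was at 2851 against 7330 CPM (-1.36), lower in 9 regions and higher in CNU (38548 against 17372 CPM, 1.15). Over the 9 regions that both pairs hold, the log2 ratio of Ttr was -2.13 here and 2.06 in the other pair. Of 8 choroid plexus genes measured in the mean of both arms, 6 were at least 1.5-fold lower, where 1.06% of all genes were. The hypothalamic peptides Oxt (3.06 against 60.9 CPM, -4.32) and Avp (5.58 against 60.0, -3.43) were lower through Hypothalamus, where Oxt had 52 against 1396 UMIs and Avp 69 against 1360. In each of the other 9 regions Avp had at most 18 UMIs in an arm. Cartpt was higher (167 against 26.2, 2.67). Most of the Cartpt difference lay in Cortex CTXsp (1006 against 25.4 CPM) and Hypothalamus (353 against 59.8). Matching spots on region and expression cluster took the Cartpt ratio to -0.09. A genotype and the plane of the section cannot be told apart for these genes.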

How the data were processed

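Visium libraries of 4 hemisphere sections, 1 for each genotype, were deposited as raw UMI counts per gene and spot, with a spot table that gives the authors' region labels, clusters, plaque and neighbour marks and the percent of mitochondrial counts. Space Ranger, Seurat and the build mm10 are named in the submitters' processing notes, and their versions and how spots were marked or assigned to regions are not given in the sources used here. Marks made at the resolution of spots do not show whether smaller plaques lie under unmarked spots.

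Counts were summed by region and arm, scaled to the region's total, and averaged over regions with weights by the number of spots. Genes of at least 5 CPM in the mean of both arms counted as measured, 1.5-fold as a difference of size, and a 95% interval from Poisson counting that left out 0 as beyond counting error. Where an arm had 0 UMIs, 3 counts took their place. One gene, Cst7, was given by its 3 UMIs in Dp16. No test was made, since each group has 1 section. Intervals of shares are exact binomial (Clopper-Pearson). The calculation was tested on simulated data. Doublets do not apply to spots and no spot was filtered on depth, except those under 5000 UMIs in the thinned shares (150 unmarked spots and 189 Dp16 spots).

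Genes named outside the duplicated segment were, above 10 CPM, the 15 with the highest ratios and the 12 with the lowest, ranked by the smaller of the overall and the median regional ratio, the 3 most abundant and the 2 extreme members of each list, and 15 genes named in all cases. Other genes were chosen after their values were seen: Itgax, Ccl3, Fcer1g, Psmb8 and other list members given as examples, and the near-identical copies. The members and lists were chosen with earlier results of these data known. The spot rule uses marks, regions and clusters, and the clusters were built from expression. Alternatives changed scaling, region matching, clusters, filters and thresholds, and 3 of them were chosen after seeing the data. Promoters came from RefSeq (GRCm38.p6) by symbol, for 98 of 147 named genes. Python 3.11.15, numpy 2.4.6, scipy 1.17.1, pandas 2.3.3, matplotlib 3.10.9, R 4.3.3 and edgeR 4.0.16 (TMM factors) were used.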

Additional observations from a re-analysis of the deposited data

Results flagged for a closer look

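For 3 genes the 2 pairs of sections lay on opposite sides of 0, over the 9 regions that both pairs hold. Gstp1 had a log2 ratio of -1.61 for unmarked 5xFAD-Dp16 over Dp16 and of 0.70 for unmarked 5xFAD over Wild-type. Ttr had ratios of -2.13 and 2.06, and Cox8b, a mitochondrial subunit gene, of -1.62 and 2.45. In both unmarked 5xFAD-Dp16 and Dp16 spots, Cox8b and Ttr were highest in CNU, Cortex CTXsp and Cortex OLF. There Cox8b was at 81.5 against 28.9, 26.0 against 93.0 and 10.8 against 29.5 CPM, and Ttr differed with the same signs. In Cortex SSp and Thalamus the signs differed, with at most 6 Cox8b UMIs in an arm. Whether choroid plexus content accounts for the Cox8b ratios was not tested. With 1 section a group, the difference between the pairs was not tested.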

How the results depend on the processing

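No paired analysis was possible because the sections share only the replicate number 1. Of 59 named genes past 1.5-fold, 57 kept their direction in the alternatives that gave them a value, which were all 16 that refit all genes for 40 genes and at least 10 for the rest. Cartpt went to -0.089 when spots were matched on region and expression cluster, and Spp1 to -0.57 without spots holding a UMI of Cst7 or Itgax. Matching on region and cluster also gave medians of 0.61 for complement and -0.16 for synaptic genes. Leaving out the Cst7 or Itgax spots gave 0.31 for plaque-associated, 0.41 for homeostatic and 0.51 for complement genes. Crude sums over the matched spots turned the myelin median to -0.15. Counts of genes higher and lower were 553 and 426 at 1 CPM or more, 60 and 38 at 20 CPM or more, and 36 and 27 at 2-fold. The share of genes past 1.5-fold that were higher was 56.9%, 64.1% with TMM factors and 45.8% for genes of at least 5 CPM in Dp16. The share of unmarked spots with Cst7 or Itgax was 16.1% unthinned and 3.25% at 2 UMIs or more, where Dp16 had 0%. Without region matching the plaque-associated sums were 0.32, 0.79 and 1.46 above Dp16 in unmarked, neighbour and plaque spots. The cause of these shifts was not tested. Over all 16 alternatives the medians ranged from 0.31 to 1.03 for plaque-associated genes, 0.41 to 0.65 for interferon-stimulated genes and -0.25 to -0.16 for synaptic genes. Depth limits single genes within a region, such as Trem2 in CNU, and no alternative replaces a further section.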

Other observations

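The genes below were chosen after their values were seen. Sgk1, Klf2 and Cdkn1a were higher in all 10 regions of unmarked 5xFAD-Dp16 spots. Sgk1, a kinase induced by glucocorticoids and cell stress, was at 107 against 41.5 CPM in Dp16 (log2 1.36), Klf2 at 24.4 against 13.4 (0.87) and the cell-cycle inhibitor Cdkn1a at 9.90 against 5.40 (0.87). In the pair without the duplication the signs were opposite, with Sgk1 at -1.13, Klf2 at -1.04 and Cdkn1a at -0.48. Sgk1 was at 67.5 CPM in unmarked 5xFAD spots and 148 in Wild-type, Klf2 at 20.1 and 41.5, and Cdkn1a at 6.32 and 8.84. The Dp16 section thus had the lowest level of each of these genes, and Wild-type the highest of Sgk1 and Klf2. Among other genes looked at with these, Ddit4 was at 0.62 (higher in 10 of 10 regions), Nfkbia at 0.89 (9 of 10), Tsc22d3 at 0.08 and Fkbp5 at -0.18.

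Nefh, Stac2 and Vamp1 were lower. The heavy neurofilament Nefh was at 40.3 against 68.5 CPM (-0.77) and Stac2 at 13.9 against 24.4 (-0.81), both lower in 10 of 10 regions. The synaptobrevin Vamp1 was at 131 against 233 CPM (-0.83) and lower in 7 of 10. All 3 were also lower in the other pair, with ratios of -0.51 for Nefh, -0.55 for Stac2 and -0.29 for Vamp1.

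Tac1, the precursor gene of substance P, was at 211 against 70.2 CPM (1.59) and the enkephalin precursor gene Penk at 202 against 114 (0.83), each higher in 8 of 10 regions. In the other pair they were at 0.03 and -0.43.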
